A study of Mus musculus with 7 samples.

Results

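Carbonic anhydrases are zinc enzymes that convert carbon dioxide and water to bicarbonate and a proton. They serve acid-base balance, ion transport and the bicarbonate-dependent steps of metabolism. In liver, bicarbonate made in mitochondria feeds carbamoyl phosphate synthesis for the urea cycle and pyruvate carboxylation for gluconeogenesis, and membrane-bound forms act at the cell surface. The isoforms differ mainly in where they work, whether in the cytosol, in mitochondria or at the plasma membrane. The genes described here are the 10 carbonic anhydrase genes Car1, Car2, Car3, Car4, Car5a, Car5b, Car8, Car9, Car12 and Car14, chosen by gene symbol from probe sets annotated to exactly 1 gene. Each had 1 probe set, so they are 10 of 19933 genes and take up 10 of the 27541 rows of the table. They were chosen with their knockout and rescued values in view. Their differences between the groups are therefore given as a description, with no p-value for any of the 10 genes.

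Liver RNA of male C57BL/6 mice aged 4 months was hybridised to 7 Affymetrix Mouse Gene 1.0 ST arrays, described as biological replicates. The HDAC3 knockout group (3 arrays) received AAV-Cre, an adeno-associated virus carrying Cre recombinase. The rescued group (4 arrays) received AAV-Cre plus AAV-Flag-HDAC3, so Cre was given in both groups and the rescued livers carry an added vector. The titles of these 4 arrays say WT, while their genotype and vector labels say rescued, and they were grouped by genotype. Livers were taken 2 weeks after injection, at 5 pm (ZT10), from mice with free access to normal chow. HDAC3 is a histone deacetylase of the NCoR and SMRT corepressor complexes. The sources used here give neither the targeted allele nor the promoter that drives Cre, and livers without a vector were not analysed here.

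Values are log2 intensities, differences are knockout minus rescued, and errors are SD unless said otherwise. The Hdac3 probe set averaged 8.92 ± 0.16 in knockout livers (n = 3) and 9.40 ± 0.13 in rescued livers (n = 4), a difference of -0.48 (SE 0.10, limma adjusted p = 0.0124). Hdac3 was not called with knockout replicate 1 left out, at a difference of -0.49. All 8 hepatocyte markers lay above the background mark set by receptor genes, and none was called (limma, 0 also at an unadjusted p under 0.05). Median intensities ran from 105.0 to 110.9 in knockout arrays and from 96.3 to 102.3 in rescued arrays, so every knockout array had the higher median. Over all genes the median difference was 0.09 as deposited, 0.00 after quantile normalization or cyclic loess and -0.03 after median centring. Levels were set against 1190 olfactory and vomeronasal receptor genes, whose 95th percentile, 6.30 in knockout and 6.14 in rescued livers, served as a background mark. Of the 10 genes, 7 lay above that mark in at least 1 group, and Car4, Car9 and Car12 did not.

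The family did not move as a block. Car14 was higher and Car1 lower in knockout livers, each by more than 2-fold, and the differences of the other 8 genes lay between -0.58 and 0.32. With limma's moderated test and an adjusted p under 0.05, 6 of the 10 genes were called, against 14.4% of all genes tested. Of these, 3 of the 10 genes were called higher, against 9.54% of all genes, and 3 lower, against 4.85% of all genes. The genes called higher were Car14, Car5a and Car4, and those called lower were Car1, Car5b and Car8. For these same 6 genes knockout and rescued arrays were fully apart, as for 29.6% of all genes: 3 were higher, against 21.0% of all genes, and 3 lower, against 8.56%. Called as deposited and after quantile normalization, median centring and cyclic loess alike were Car14 as the 1 higher gene, against 2.30% of all genes, and all 3 lower genes, against 4.30%. The median difference of the 10 genes was 0.02. Nothing is read from these counts, because the genes were chosen on this contrast. The same holds for the calls of single genes of the 10 given below, and for whether they held in other fits.

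**Figure D1:**
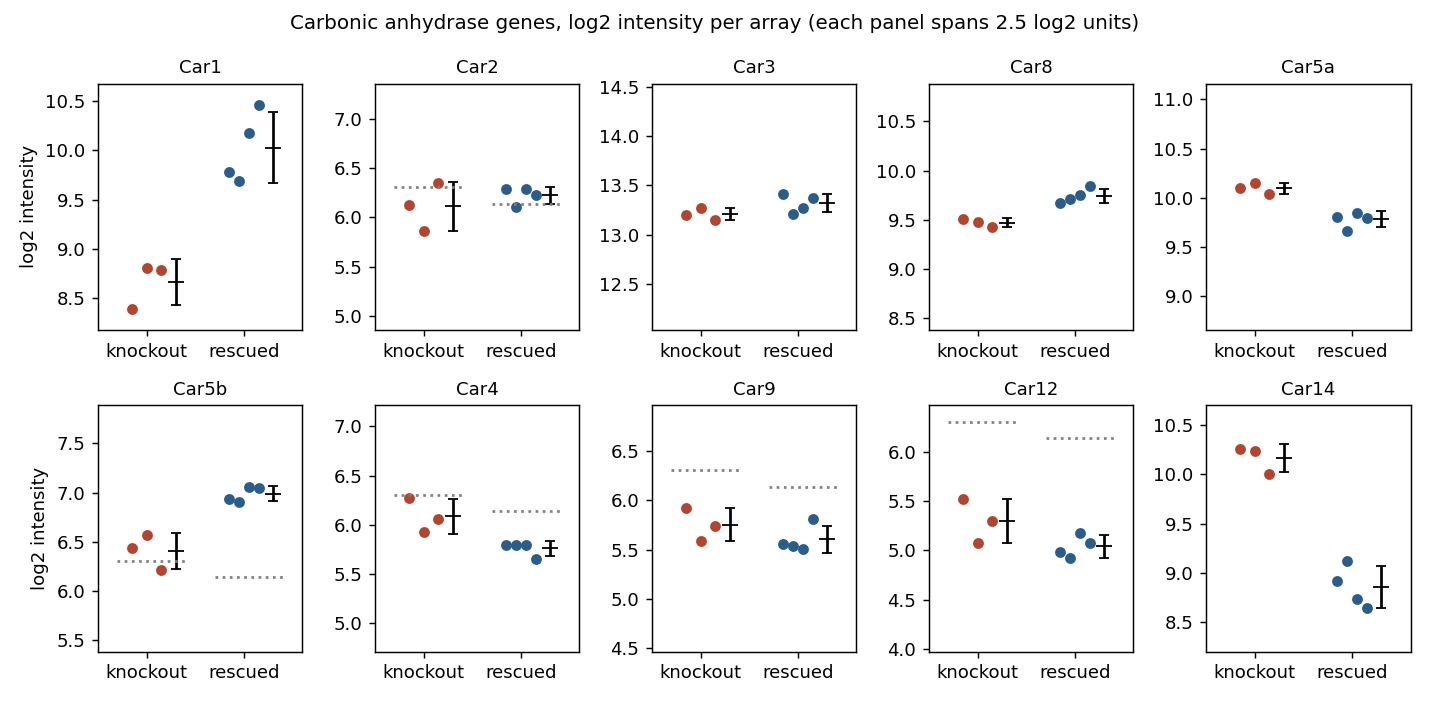
Log2 intensity of the 10 carbonic anhydrase genes in each array, with knockout (3 arrays) at the left and rescued (4 arrays) at the right of every panel. Points are arrays, black bars are the mean and SD, and dotted lines mark the 95th percentile of receptor genes where it falls within the panel. The groups stand clear of each other for Car1, Car5b, Car8, Car5a, Car4 and Car14, and they overlap for Car2, Car3, Car9 and Car12.

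Among the cytosolic forms, Car1 showed the greatest difference. Car1 is an isoform best known as an abundant protein of red blood cells. Its log2 intensity was 8.39, 8.81 and 8.79 in the knockout livers, against 9.78, 9.69, 10.17 and 10.46 in the rescued livers. The groups were fully apart, with a gap of 0.88 between the highest knockout and the lowest rescued array. The means were 8.66 ± 0.24 in knockout (n = 3) and 10.03 ± 0.36 in rescued livers (n = 4). That is a difference of -1.37 (SE 0.17), or 2.58-fold lower, and its size exceeded that of 99.9% of all genes. The rescued arrays were more spread for Car1 than for any of the other 9 genes. With each array left out in turn the difference ran from -1.48 to -1.22, and it was called each time. In whole liver, fewer cells of a type and less RNA per cell cannot be told apart.

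Because Car1 is a red cell gene, erythroid markers are given beside it. Of 8 listed erythroid markers 6 were measured, and none was at 0. Of the 6, 1 was called lower, against 4.85% of all genes, and 1 higher, against 9.54%. The lower one was Alas2, which encodes the erythroid form of the first haem synthesis enzyme. Alas2 stood at 8.50, 8.17 and 8.56 in knockout livers, against 9.49, 9.47, 9.54 and 9.74 in rescued livers, and the groups did not overlap. Its difference was -1.15 (SE 0.10, limma adjusted p = 0.000190), and its call held in every scaling and with any array left out. The highest array was rescued replicate 4 for both Car1 and Alas2, while the lowest was knockout replicate 1 for Car1 and knockout replicate 2 for Alas2. None of the other 5 was called lower, and their differences were 0.00 to 0.27 as deposited. Of these only Rhag, a red cell membrane protein gene, was called higher (0.22, limma adjusted p = 0.0452). It lay at the background level, and its call was lost in every rescaling and in 6 of the 7 fits with 1 array left out. For Klf1, an erythroid transcription factor gene, the difference of 0.00 turned to -0.11 to -0.09 in the 3 rescalings.

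The intensities of the 6 erythroid markers summed to 800 to 864 in knockout arrays and to 1139 to 1306 in rescued arrays. Without Alas2 the 5 others summed to 462 to 512 in knockout arrays and to 407 to 451 in rescued arrays, so the order of the groups was turned round. Both sums are of intensities as deposited, where every knockout array had the higher median, and neither was computed after rescaling. A further 4 rows of the table carry several adult globin symbols each and so name no single gene. All 4 had higher means in knockout livers, by 0.47 to 0.92, read only as deposited and not after rescaling. The row at 0.92 was dim, with a mean of 5.93 in rescued livers. Its groups overlapped, with the lowest knockout array at 6.50 and the highest rescued array at 6.59. The groups of the row at 0.47 also overlapped, by little (12.428 against 12.429). In a fit over all 27541 rows, 3 of the 4 were called higher (limma adjusted p = 0.0232 to 0.0491) and 1 was not (0.0755). Slc4a1, the anion exchanger of red cells, differed by 0.37 (SE 0.12, limma adjusted p = 0.0535), and its groups overlapped. Of the fits with 1 array left out, only that without knockout replicate 2 called it. Its difference was 0.26 to 0.31 after rescaling, where it was not called. The lower Car1 level thus stood beside a lower Alas2 level, and beside globin rows and other red cell genes that were not called lower. The part of red cell content in the Car1 difference was not tested. Globin rows and Slc4a1 were set beside Car1 after its value was seen.

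**Figure D2:**
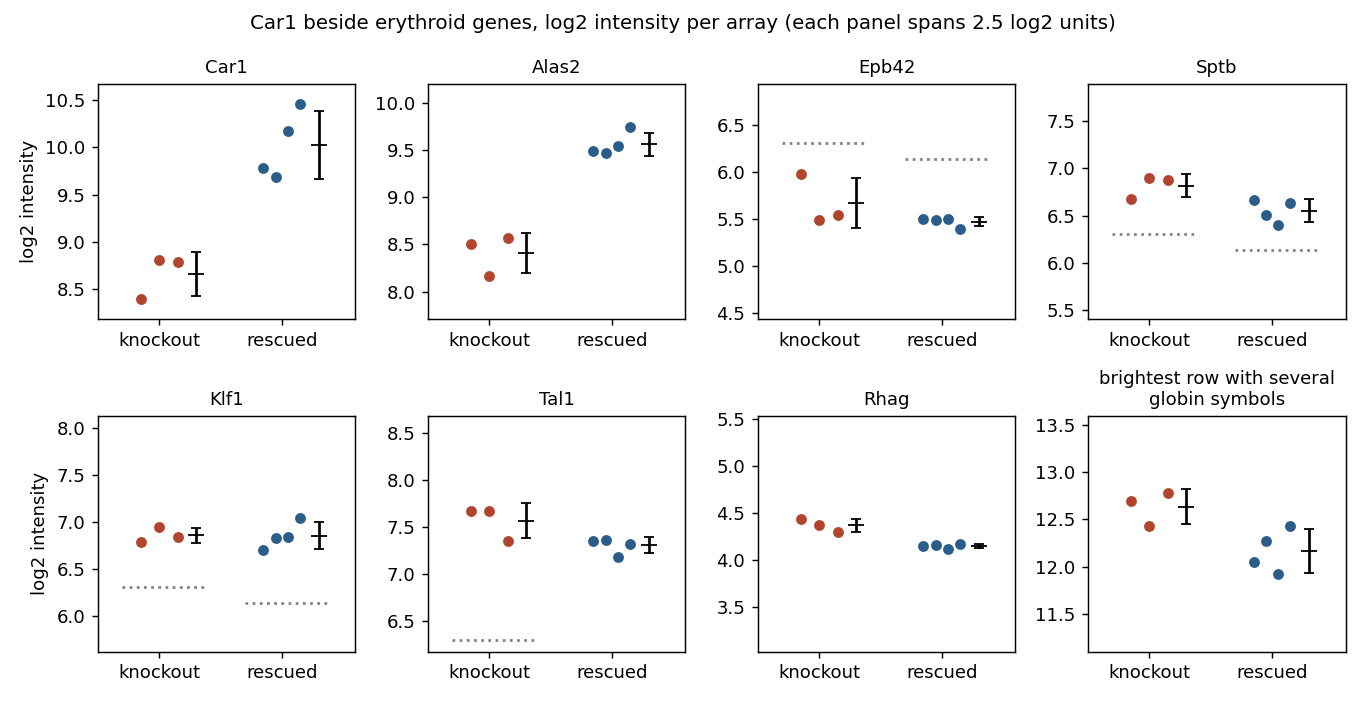
Log2 intensity in each array for Car1, the 6 measured erythroid markers and the brightest row that carries several globin symbols, with knockout (3 arrays) left of rescued (4 arrays). Points are arrays, black bars are the mean and SD, and dotted lines mark the 95th percentile of receptor genes where it falls within the panel. Car1 and Alas2 sit lower in knockout arrays, and the globin row, at 12.63 in knockout and 12.17 in rescued livers on average, does not.

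Car3 encodes a cytosolic form of low catalytic activity that is abundant in muscle, fat and rodent liver, and in the rat its liver level is higher in males. Its level was 13.20, 13.27 and 13.15 in knockout livers, against 13.41, 13.21, 13.27 and 13.38 in rescued livers. The groups overlapped, and the difference of -0.11 (SE 0.07) had a 95% interval of -0.27 to 0.05. This interval includes 0 as deposited, and the rescalings gave -0.23 to -0.19. Among the 8 skeletal muscle markers 2 were called higher, against 9.54% of all genes, and none lower, and neither call held in all 3 rescalings. Of the 2, Acta1 lost its call after median centring and Atp2a1 in each rescaling. Among the 7 measured adipocyte markers 1 was called higher, in every scaling, against 2.30% of all genes, and none lower. The summed intensity of the muscle markers was 828 to 942 in knockout and 695 to 781 in rescued arrays, and that of the adipocyte markers 1192 to 1415 in knockout and 1024 to 1126 in rescued arrays. Both sums, taken as deposited and not rescaled, were higher in knockout arrays, and their part in the Car3 level was not tested. No marker of either list was at 0.

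Car2, the widespread high-activity cytosolic form, was close to the background mark. It stood at 6.12, 5.86 and 6.35 in knockout livers, against 6.29, 6.10, 6.28 and 6.22 in rescued livers. The groups overlapped. The difference was -0.11 (SE 0.11, 95% interval -0.35 to 0.12), and it was 0.01 without knockout replicate 2. Car8 encodes a family member that has lost the catalytic activity and binds the inositol trisphosphate receptor. Its level was 9.51, 9.48 and 9.42 in knockout livers, against 9.67, 9.71, 9.75 and 9.84 in rescued livers. The groups did not overlap, although the difference of -0.27 (SE 0.07, 1.21-fold lower) was small. Its direction was the same under the 3 rescalings, from -0.39 to -0.27, but its call was lost in 6 of the 7 fits with 1 array left out, with differences of -0.30 to -0.24. Rescued replicate 1 was the 1 array whose removal kept it.

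In RefSeq, Car13, Car1, Car3 and Car2 follow each other on chromosome 3 with no other protein-coding gene between them. Their differences, in that order, were 0.27, -1.37, -0.11 and -0.11. Car13, another cytosolic form, was at 5.27, 5.46 and 5.50 in knockout livers and at 5.35, 5.20, 5.00 and 5.02 in rescued livers, all within the range of the receptor genes. No test compared the 4 differences with each other.

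The mitochondrial forms differed in opposite directions. Car5a, the form known from liver mitochondria, was at 10.10, 10.15 and 10.04 in knockout livers, against 9.81, 9.66, 9.85 and 9.80 in rescued livers. All knockout values were higher than all rescued values. The means were 10.10 ± 0.06 (n = 3) in knockout and 9.78 ± 0.08 (n = 4) in rescued livers, a difference of 0.32 (SE 0.07), or 1.25-fold higher. After median centring the difference was 0.20 and Car5a was no longer called. Leaving out knockout replicate 1 or 2, or rescued replicate 2, also ended the call, with differences of 0.28 to 0.35 over the 7 fits with 1 array left out.

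Car5b, the form found more widely outside liver, was at 6.44, 6.57 and 6.22 in knockout livers, against 6.94, 6.91, 7.06 and 7.05 in rescued livers. The groups did not overlap. Mean levels were 6.41 ± 0.18 (n = 3) in knockout and 6.99 ± 0.08 (n = 4) in rescued livers. Car5b was thus 1.49-fold lower, with a difference of -0.58 (SE 0.09) as deposited and -0.69 to -0.68 after rescaling. Knockout replicate 3 lay below the background mark, so the fold may be too small. The call held with each array left out, with differences of -0.66 to -0.48. Car5a and Car5b are paralogs, and cross-hybridisation between their probes was not tested.

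The promoters of this oppositely placed pair, from 250 bases before the start to 50 bases after it, are shown to compare them. They are RefSeq windows of build GRCm38.p6 and both are on the minus strand, at chr8:121944863-121945162 for Car5a and at chrX:164027961-164028260 for Car5b. Capitals mark matches to the motifs listed further on.
Car5a: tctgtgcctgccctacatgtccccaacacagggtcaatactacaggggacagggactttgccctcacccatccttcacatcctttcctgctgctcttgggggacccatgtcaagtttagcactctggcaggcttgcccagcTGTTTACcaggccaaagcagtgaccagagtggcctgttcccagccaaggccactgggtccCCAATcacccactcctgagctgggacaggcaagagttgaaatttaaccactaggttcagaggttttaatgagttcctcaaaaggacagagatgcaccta
Car5b: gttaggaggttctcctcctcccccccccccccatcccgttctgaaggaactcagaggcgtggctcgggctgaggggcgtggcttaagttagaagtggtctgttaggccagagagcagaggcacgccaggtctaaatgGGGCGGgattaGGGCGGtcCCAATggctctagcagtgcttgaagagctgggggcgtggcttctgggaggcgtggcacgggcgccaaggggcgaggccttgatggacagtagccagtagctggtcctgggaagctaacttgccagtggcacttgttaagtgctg
The Car5a window holds no CG dinucleotide at a GC content of 53.7%, and the Car5b window holds 12 at 61.7%. The median GC content of all 32851 windows in the table was 52.7%. Both windows hold a CCAAT box, at position -49 for Car5a and -94 for Car5b, as do 37.4% of all windows. Car5b also holds a pair of GC boxes (GGGCGG), at -113 and -102, where 35.7% of windows hold at least 1. Car5a holds a forkhead motif (TGTTTAC) at -109, found in 3.65% of windows.

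Among the membrane forms, Car14 was the gene with a clear difference. Car14 encodes a transmembrane enzyme with its active site outside the cell, and it is known from the plasma membrane of mouse hepatocytes. Its level was 10.26, 10.23 and 10.002 in knockout livers, against 8.92, 9.12, 8.73 and 8.64 in rescued livers. The lowest knockout array lay 0.88 above the highest rescued array. The means were 10.16 ± 0.14 (n = 3) in knockout and 8.85 ± 0.21 (n = 4) in rescued livers. The difference was 1.31 (SE 0.11, 95% interval 1.06 to 1.56), or 2.48-fold higher. Its size exceeded that of 99.8% of all genes, and only 0.396% of genes differed by at least 2-fold in either direction. Rescaling gave 1.20 to 1.32 and leaving out an array 1.24 to 1.40, and Car14 was called each time.

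The Car14 promoter is shown because this gene was the highest of the family relative to rescued livers. It lies at chr3:95904636-95904935 on the minus strand of GRCm38.p6.
Car14: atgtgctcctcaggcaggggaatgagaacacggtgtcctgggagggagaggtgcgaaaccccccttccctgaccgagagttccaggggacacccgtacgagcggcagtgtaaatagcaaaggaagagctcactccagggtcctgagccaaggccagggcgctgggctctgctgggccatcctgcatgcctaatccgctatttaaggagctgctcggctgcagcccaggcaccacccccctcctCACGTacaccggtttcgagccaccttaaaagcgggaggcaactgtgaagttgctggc
The Car14 window holds 13 CG dinucleotides at a GC content of 61.0%. Of 10 motifs searched on both strands, it holds 1, the core ACGTG of the hypoxia response element, at position -7. That core is also part of the E-box CACGTG and occurs in 19.6% of all windows. It also occurs in the Car9 window at -18 and in the Car4 window at 3. The nuclear receptor core hexamer AGGTCA, the STAT motif TTCNNNGAA, the E-box CACGTG, the GATA motif GATAAG and the HNF1 core GTTAAT were in none of the 6 windows that matched one of the 10 genes. They occur in 16.3%, 8.30%, 7.15%, 7.44% and 7.10% of all windows in that order. The TATA box TATAAA, at 43 in Car4, occurs in 13.6%. The Car12 window holds a GC box at -35, and the Car9 window a CCAAT box at -165. A match is a string of letters and not a shown binding site.

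The other membrane forms were at the background level, so no fold is given. Car4, anchored in the membrane by a lipid tail, was at 6.28, 5.93 and 6.06 in knockout livers, against 5.80, 5.80, 5.80 and 5.65 in rescued livers. The groups did not overlap as deposited. The difference of 0.32 (SE 0.09) was 0.17 to 0.21 after rescaling, where Car4 was not called. It was also not called in 5 of the 7 fits with 1 array left out, with differences of 0.23 to 0.41, and kept its call without knockout replicate 2 or rescued replicate 1. Car9, a transmembrane form that is switched on by hypoxia, was at 5.92, 5.59 and 5.74 in knockout livers, against 5.56, 5.54, 5.51 and 5.81 in rescued livers. The groups overlapped, and the difference of 0.15 (SE 0.10, 95% interval -0.07 to 0.36) was 0.0027 after quantile normalization and -0.0031 after cyclic loess. Car12, another transmembrane form, known from kidney and gut epithelium, was at 5.52, 5.07 and 5.29 in knockout livers, against 4.99, 4.92, 5.18 and 5.07 in rescued livers. The groups overlapped here too, with a difference of 0.26 (SE 0.11) that was 0.12 to 0.14 after rescaling. Bile duct cells can carry membrane carbonic anhydrases, and none of the 6 measured cholangiocyte markers was called by limma, with 2 at an unadjusted p under 0.05. Their summed intensity, as deposited and not rescaled, was 590 to 670 in knockout and 512 to 566 in rescued arrays.

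**Figure D3:**
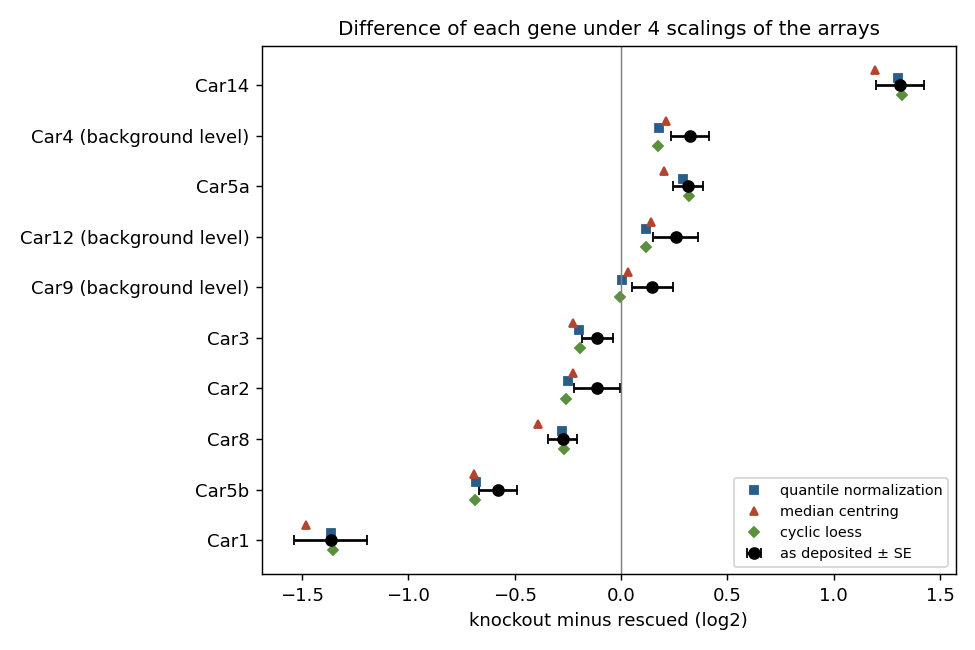
Difference of each carbonic anhydrase gene in log2 units, knockout minus rescued, as deposited with its SE (black) and after quantile normalization, median centring and cyclic loess of the arrays. Car14 (1.31) and Car1 (-1.37) stand far outside the shift between scalings, while Car4, Car9 and Car12, which are at the background level, move towards 0.

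The family has 6 further genes on the array, and none was called with limma at an adjusted p under 0.05, while 4 had an unadjusted p under 0.05, as did 7115 of all 19933 genes. Car6, the secreted form of saliva, differed by 0.23 and was called without knockout replicate 2. Car7, a cytosolic form of brain and muscle, differed by 0.23, and Car13 by 0.27; both were called without rescued replicate 1. The inactive relatives Car10 and Car11 differed by 0.23 and 0.07, Car10 was called without knockout replicate 3, and Car11 was at -0.04 to -0.01 after rescaling. In the rescalings Car6 differed by 0.11 to 0.12, Car7 by 0.09 to 0.11, Car10 by 0.09 to 0.12 and Car13 by 0.12 to 0.15. No rescaling called any of them. Car15, a membrane-anchored form, differed by -0.03 as deposited and by -0.17 to -0.14 in the rescalings, where it was not called. With an array left out its difference ran from -0.14 to 0.05. Among these 6, only Car7, Car11 and Car15 lay above the background mark in a group.

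Genes that share bicarbonate with the carbonic anhydrases were tested in the same fit. Of 18 measured bicarbonate and anion transporters of the Slc4 and Slc26 families, 3 rose and 1 fell, where 9.54% of all genes were called higher and 4.85% lower. The median of their differences was 0.07, against 0.09 over all genes. The sodium bicarbonate cotransporter Slc4a4 stood at 10.69, 10.75 and 10.72 in knockout livers, against 10.17, 10.32, 10.26 and 10.30 in rescued livers. The groups did not overlap, and it rose by 0.46 (SE 0.07, limma adjusted p = 0.00285). The sulfate and anion exchanger Slc26a1 was at 8.90, 8.96 and 8.82 in knockout livers, against 9.61, 9.38, 9.50 and 9.58 in rescued livers. It fell by 0.63 (SE 0.08, limma adjusted p = 0.00118), again without overlap. Slc4a9 rose by 0.39 (limma adjusted p = 0.00674) near the background mark. The anion exchanger Slc4a3 was 0.30 higher (limma adjusted p = 0.0286), was not called in any rescaling, and lost its call in 5 of the 7 fits with 1 array left out, with differences of 0.26 to 0.34; it was called without knockout replicate 2 or rescued replicate 1. Of 9 measured genes of the sodium-proton exchanger list 1 rose, against 9.54% of all genes, and none fell, against 4.85%. That 1 was the exchanger's scaffold gene Slc9a3r1 (0.27, limma adjusted p = 0.0372), called without knockout replicate 3 or rescued replicate 4 but in none of the other 5 fits with 1 array left out, whose differences were 0.21 to 0.30.

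The list of enzymes that use bicarbonate also holds Hlcs, which attaches biotin to carboxylases. Of its 9 measured genes, 1 rose, against 9.54% of all genes, and 1 fell, against 4.85%, with a median difference of -0.03. Acacb, the acetyl-CoA carboxylase of the mitochondrial surface, rose by 1.06 (SE 0.12, limma adjusted p = 0.000822). Mccc1, a subunit of the leucine-degrading methylcrotonyl-CoA carboxylase, fell by 0.38 (limma adjusted p = 0.0137), and without knockout replicate 1 its difference was -0.34 and its adjusted p 0.0562. Cps1, which takes up the mitochondrial bicarbonate for urea synthesis, was at 13.22, 13.15 and 13.28 in knockout livers, against 13.28, 13.25, 13.26 and 13.22 in rescued livers; the groups overlapped (difference -0.03, limma adjusted p = 0.711; named outside the rule for named genes). Of 8 measured urea cycle genes 1 fell, against 4.85% of all genes, and none rose, against 9.54%. The 1 that fell was Otc, ornithine carbamoyltransferase, with a difference of -0.42 (SE 0.08, limma adjusted p = 0.00853).

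Beside Car9, 16 hypoxia-responsive genes were read, of which 2 rose and 1 fell, a share near the 14.4% called over all genes, and their median difference, like that of all genes, was 0.09. The glucose transporter Slc2a1 rose by 0.35 (limma adjusted p = 0.0116) and the growth factor Vegfa by 0.30 (limma adjusted p = 0.0186), and both lost their calls after median centring (adjusted p = 0.0521 and 0.0859). With knockout replicate 1 or rescued replicate 2 left out Vegfa was not called either, and its differences over the 7 such fits were 0.26 to 0.33. The oxygen-sensing prolyl hydroxylase Egln3 fell by 0.60 (limma adjusted p = 0.0217). Its call was lost when knockout replicate 1 or 3 or rescued replicate 2 was left out, with differences of -0.74 to -0.50.

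**Figure D4:**
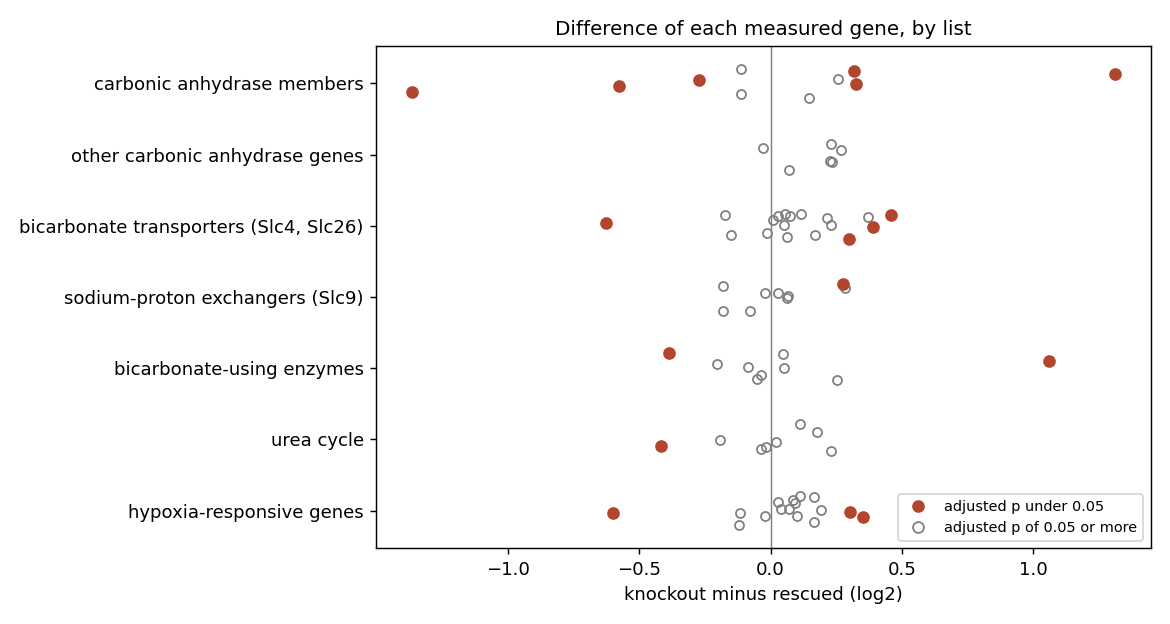
Difference of each measured gene in log2 units, knockout minus rescued, for the 10 carbonic anhydrase genes and the 6 related lists. Filled points had an adjusted p under 0.05 in limma's fit over all genes, open points did not, and points are spread vertically only to separate them. Car1 and Car14 lie at the ends of the plotted range, and among the related genes Acacb at 1.06 lies farthest from 0.

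The genes whose values ran most like Car14 and Car1 over the 7 arrays were looked up among 12438 genes above the background mark, as a description. With Car14 they were Ghrl, Sqstm1 and Col22a1 (Pearson r = 0.993, 0.990 and 0.990), with differences of 0.27, 0.50 and 0.37. With Car1 they were Prkdc, Zfp141 and F9 (r = 0.992, 0.991 and 0.990), with differences of -0.40, -1.70 and -0.46. The arrays compared share the separation of the groups and the offset between arrays, whose part in these correlations was not tested, and 658 genes for Car14 and 442 for Car1 reached r above 0.9.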

How the data were processed

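RNA from 7 livers was extracted with Trizol and biotin-labelled for Affymetrix arrays, per the labels. The deposited table holds the authors' intensity values on a linear scale, 1 per probe set and array. RMA and Partek are the tools listed, per the submitters' processing notes, with no version or role. RMA subtracts background, normalizes the arrays and summarises probes, so small differences of dim genes depend on it. The sources used here name no genome build.

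Log2 of the values was taken with no filter. Symbols came from the platform annotation: 21631 had 1 symbol, 1317 several and 4593 none. A gene was its brightest probe set with 1 symbol, which gave 19933 genes. The main test was limma 3.58.1 (lmFit and eBayes, two-sided, without covariates, in R 4.3.3). Its p-values were adjusted by Benjamini-Hochberg across the 19933 genes, and a gene was called under 0.05. No 2 arrays shared more than 3.79% of equal values. The labels call the arrays biological replicates, and their number limits the precision.

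The carbonic anhydrase genes, the lists and the tests were chosen with earlier results of these data known. Named are Hdac3, all carbonic anhydrase genes, up to 4 called genes with the greatest differences of each related list, and for Car14 and Car1 the 3 most similar genes. Genes named outside this rule (Cps1, Slc4a1, and the markers Alas2, Rhag, Klf1, Acta1 and Atp2a1) were named after their values were seen. Listed genes that were not measured, among them Slc4a7, Pc, Ass1 and Gls2, were not analysed here. In simulated data for this comparison with 200 of 19933 genes changed, the fit recovered 57.5% of 1.3-fold, 97.0% of 1.5-fold and 100% of 2-fold changes. False calls numbered 14, 8 and 4 in that order. The simulated arrays had independent noise and no offset between groups, unlike the deposited arrays, so these rates may not hold here. Alternatives left out each array, blocked on replicate number, weighted arrays, used a robust trended variance, averaged probe sets, took in all rows, dropped dim genes by either of 2 limits, rescaled the arrays in 3 ways, or set the threshold at 0.01 or 0.1. Being called in every scaling was added after seeing the data. Endothelial markers (8 measured) had 1 called lower, against 4.85% of all genes, though not in every scaling. Macrophage markers (8 measured) had none called, with 1 at an unadjusted p under 0.05. Plots used matplotlib 3.10.9.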

Additional observations from a re-analysis of the deposited data

Results flagged for a closer look

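In a test for 1 outlying array among the 4 rescued arrays, run on 29 genes, 3 genes had such an array. Chance flags about 1 in 20 where no values are tied. For Car4 and Car11 the other 3 rescued arrays were tied, so the test flags them whatever the gap, and that rate does not apply. Car4 was at 5.65 in rescued replicate 4, while the other 3 rescued arrays held the same value of 5.80. Car11 was at 6.930 in rescued replicate 3 against 6.937 in the others, a gap of no size. Slc4a9 was at 6.20 in rescued replicate 1, with the lowest of the others at 6.07.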

How the results depend on the processing

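The differences of Car1, Car5b, Car5a, Car8 and Car14 kept their sign in every alternative run. The 3 lower calls among the carbonic anhydrase genes numbered 2 to 3 with an array left out, and the 3 higher calls 1 to 3. The higher calls numbered 1 after median centring, at a threshold of 0.01 and in every scaling. Over all genes, 1901 were higher and 966 lower as deposited (66.3% higher). Higher and lower calls were 842 and 1148 after quantile normalization (42.3% higher), 517 and 2167 after median centring (19.3%) and 816 and 1146 after cyclic loess (41.6%). They were 1032 and 972 above the median level, 266 and 243 at a threshold of 0.01, 3925 and 1603 at 0.1, and 459 and 857 in every scaling. With an array left out they ran from 449 to 2199 and from 417 to 1064: 449 and 448 without knockout replicate 1, 1078 and 643 without knockout replicate 2, and 692 and 508, 531 and 417, and 798 and 533 without rescued replicates 2, 3 and 4. The other carbonic anhydrase genes had 3 calls at 0.1 and 0 to 2 with an array left out. Bicarbonate transporters had 3 to 5 calls with an array left out, and bicarbonate-using enzymes 2 each time, 1 at 0.01 and 4 at 0.1. The sodium-proton exchanger list had 0 at 0.01, 2 at 0.1, 0 in every scaling and 0 to 1 with an array left out. The urea cycle had 2 after median centring, 3 at 0.1 and 1 with each array left out. Hypoxia-responsive genes had 1 after median centring and in every scaling, 0 at 0.01 and 1 to 3 with an array left out. Where a rescaling changed a count, the cause was not tested. Replicate numbers are shared between groups, but same-numbered arrays correlated at 0.15, 0.00 and 0.01 in their deviations from the group means, and not every array correlated best with its own number. The fit with the replicate number as a block left out rescued replicate 4, whose number no knockout array shares. In it 1233 genes were higher and 705 lower, against 798 and 533 for the same arrays without the block. In the block fit 2 carbonic anhydrase genes were called in each direction. Signal over background limits what Car2, Car4, Car9 and Car12 can show, and also Car5b in knockout livers.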
